A study of Gallus gallus with 24 samples.

Results

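The 6 genes described here encode the enzymes that turn acetyl units into long-chain fatty acids and put a double bond into them: ATP citrate lyase (ACLY), malic enzyme (ME1), acetyl-CoA carboxylases alpha and beta (ACACA and ACACB), fatty acid synthase (FASN) and stearoyl-CoA desaturase (SCD). They were chosen by their identifiers, Q5F3V2_CHICK, Q90XC0_CHICK, Q98909_CHICK, Q5MB12_CHICK, FAS_CHICK and Q9YGM2_CHICK in the same order, among the 17934 features of the deposited count table. The rule used no measured value, but earlier results of these data were known when the genes were chosen. All 6 were among the 11187 genes with enough counts to be tested. RNA had been sequenced from the abdominal fat of 8 cockerels at 7 wk of age, 4 of the fat line (FL) and 4 of the lean line (LL). The lines had been selected in opposite directions on abdominal fat weight for 7 generations, and the labels name no other treatment. The birds were raised as standard broilers, and each bird was represented by 1 library that was sequenced in 3 runs, which were summed. The comparison asks whether these genes differ in level between the lines, and the ratios and covariation ask how the 6 levels relate within a bird.

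In de novo fatty acid synthesis, ACLY splits citrate that has left the mitochondrion into acetyl-CoA and oxaloacetate, and carboxylation of acetyl-CoA by ACACA gives malonyl-CoA. FASN then joins these units with NADPH as the reductant, to which ME1 contributes by oxidising malate to pyruvate. In birds the liver makes most of the fatty acid, and abdominal fat takes up much of its lipid from blood. SCD introduces the first double bond into the saturated product, mainly palmitate and stearate, before it is stored as triglyceride.

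Total counts ranged from 4299772 to 12876999 per bird. Levels are given as counts per 1000000 counts of the library (CPM) after scaling with the TMM method, which sets the bulk of genes equal between birds, and since no transcript lengths were used, levels are compared between birds and not between genes. Of 8 adipocyte markers 7 were found, with PLIN1 entering through both of its features (D3XFI0_CHICK and PLIN1). Their summed level was 14352 to 16697 CPM in FL and 11926 to 15705 CPM in LL, lowest in LL replicate 1. Summed markers of skeletal muscle (4 of 8 found) reached 12907 CPM in FL replicate 4 and 71.3 to 117 CPM in the other 7 birds. Summed liver markers (7 of 8 found) were 110 CPM in LL replicate 2 and 247 CPM in LL replicate 3, and 2.83 to 10.1 CPM elsewhere. Values without these birds are given where they change a result. Genes were called different between the lines at an adjusted p of 0.05 or less, from the quasi-likelihood F test of edgeR over all 11187 genes, with a fold change of at least 1.2. By this rule 41 genes were called, which is 0.366% of those tested.

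Of the 6 genes, ME1 was called. FASN did not pass the test after adjustment, although every FL bird lay above every LL bird at this scaling. SCD was far more variable between birds than most genes and its lines overlapped, and ACLY, ACACA and ACACB had close means in both lines. In all, 5 of the 6 were higher in FL by fold change, and the median log2 fold change (FL over LL) of the 6 was 0.24 against 0.0021 over all genes tested. The birds of the lines did not overlap for 2 of the 6, both higher in FL, and for 8.1% of all genes tested (3.76% higher in FL and 4.34% higher in LL).

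**Figure D1:**
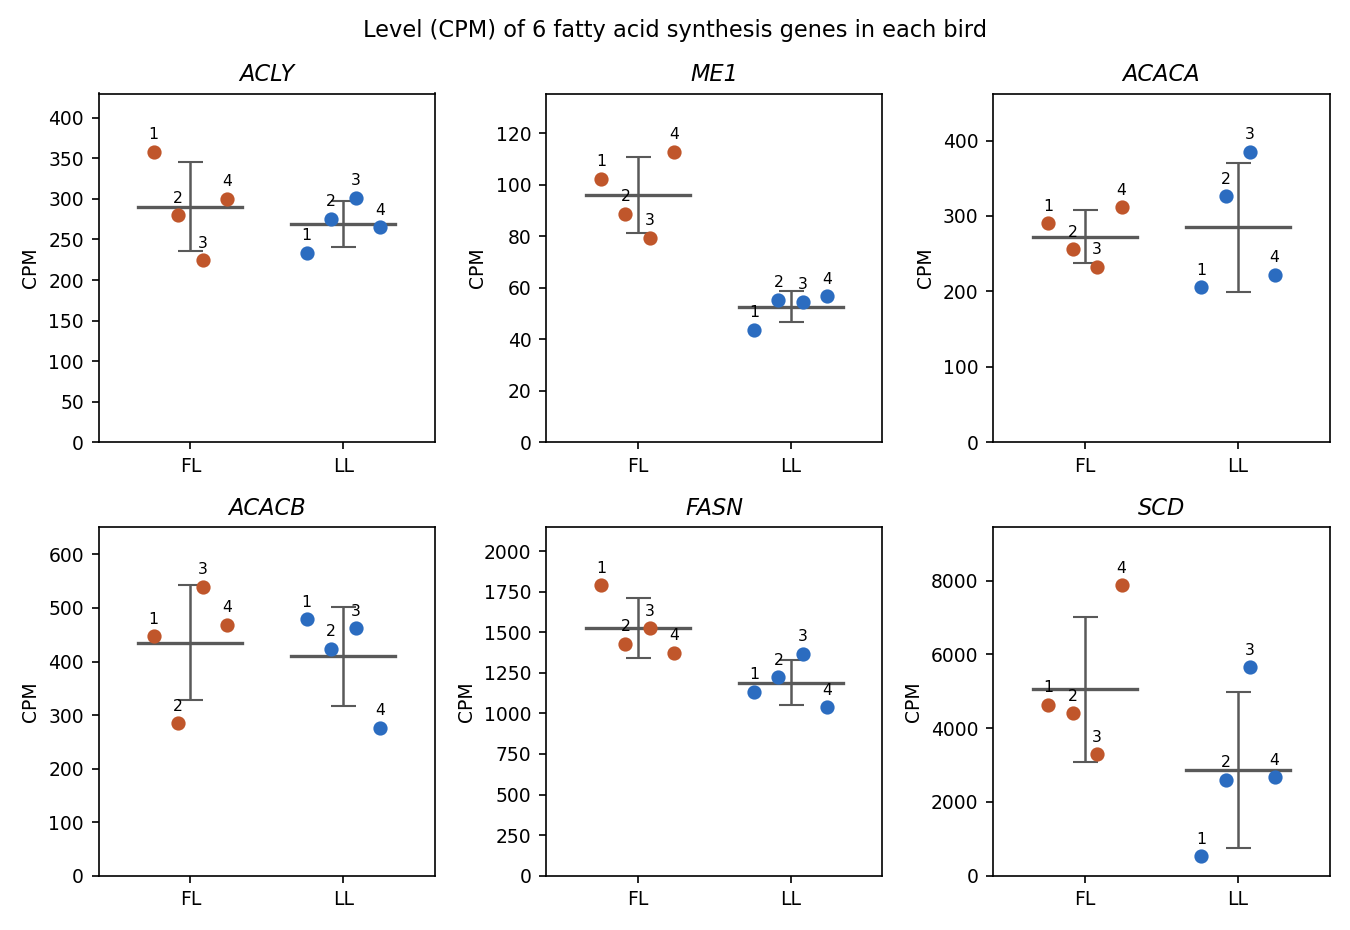
Level of each gene in CPM (vertical axis from 0) in the 4 FL and the 4 LL birds. Points are birds, labelled with their replicate number, long bars are line means and error bars are 1 SD. ME1 is the gene with a wide gap between the lines (lowest FL bird 79.5 CPM, highest LL bird 56.6 CPM), and SCD has the widest scatter within LL (531 to 5656 CPM).

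ACLY, on chromosome 27 (chr27:4344012-4368912 in build 2.1 of the chicken genome, as are all positions here), supplies cytosolic acetyl-CoA. Its level was 358, 279.7, 224 and 301 CPM in FL replicates 1 to 4 and 233, 275, 301 and 265 CPM in LL replicates 1 to 4. The lines overlapped throughout, with both the highest and the lowest bird in FL. The means were 291 ± 55.5 CPM in FL and 269 ± 28.1 CPM in LL (SD, n = 4 each), and the log2 fold change was 0.11 with an SE of 0.14 (edgeR adjusted p = 0.799).

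ME1 on chromosome 3 (chr3:80491043-80649414) is the cytosolic malic enzyme that yields NADPH. It stood at 102, 88.7, 79.5 and 113 CPM in FL and at 43.6, 55.3, 54.5 and 56.6 CPM in LL, from 306 to 1113 counts per bird. All FL birds lay above all LL birds, and the gap between the nearest birds was wider than the whole range of LL. The means were 95.9 ± 14.7 CPM and 52.5 ± 6.02 CPM (SD, n = 4 each), a 1.83-fold difference. The log2 fold change was 0.87 with an SE of 0.13 (edgeR unadjusted p = 5.1e-05, adjusted p = 0.0322), and ME1 ranked at position 17 of the 11187 genes by p. The exact permutation test of the 8 birds gave p = 0.0286, two-sided, the smallest that its 70 arrangements allow. Any gene whose lines do not overlap gets this value, so it only repeats the separation. ME1 was higher in FL in every alternative fit, but its adjusted p passed 0.05 in 6 of the 8 fits that left out a bird. It was 0.0346 without FL replicate 4, 0.0495 without LL replicate 1 and 0.0579 to 0.111 without any of the others. With a block for the replicate number the adjusted p was 0.0944. In bulk tissue, fewer cells that express a gene and less RNA of it per cell cannot be told apart.

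ACACA (chr19:8405760-8500431) forms the malonyl-CoA used for chain building. Its level was 290.4, 256, 232 and 312 CPM in FL and 206, 326, 385 and 222 CPM in LL. The FL birds lay within the range of LL, where replicates 2 and 3 were high and replicates 1 and 4 low. The means were 273 ± 35.3 CPM in FL and 285 ± 85.7 CPM in LL (SD, n = 4 each). The log2 fold change was -0.063 with an SE of 0.20 (edgeR adjusted p = 0.929), and its sign turned when FL replicate 3, LL replicate 2 or LL replicate 3 was left out (0.0075, 0.011 and 0.12).

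ACACB (chr15:6815754-6842575) makes malonyl-CoA at the mitochondrial surface, where it restrains the entry of fatty acids for oxidation. It stood at 447, 285, 539.7 and 468 CPM in FL and at 479, 424, 462 and 276 CPM in LL. The lines overlapped, and in each line a single bird was low (FL replicate 2 and LL replicate 4). The means were 435 ± 108 CPM and 410.3 ± 92.4 CPM (SD, n = 4 each), with a log2 fold change of 0.085 with an SE of 0.21 (edgeR adjusted p = 0.912). Its sign also turned without FL replicate 3 (-0.034) or LL replicate 4 (-0.062).

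FASN (chr18:4906023-4942395) carries out all steps of chain building on a single polypeptide. Its level was 1791, 1429, 1524 and 1373 CPM in FL and 1133, 1223, 1368 and 1038 CPM in LL. The lines did not overlap, but the lowest FL bird (replicate 4) and the highest LL bird (replicate 3) were next to each other. The means were 1529 ± 185 CPM and 1191 ± 140.2 CPM (SD, n = 4 each). The log2 fold change was 0.36 with an SE of 0.13 (edgeR unadjusted p = 0.0166, adjusted p = 0.246), and 13.1% of all genes had an unadjusted p of 0.05 or less. The exact permutation test gave p = 0.0286, two-sided, again the smallest possible and again fixed by the lack of overlap. For ACLY, ACACA, ACACB and SCD, whose lines overlapped, the same test gave p = 0.543, 0.943, 0.657 and 0.171. When the birds were scaled to total counts, FL replicate 4 fell to 1245 CPM, below LL replicate 3 at 1344 CPM, so that the lines overlapped. FL replicate 4 is the bird with skeletal muscle RNA, whose part in this was not tested. Without that bird the log2 fold change of FASN was 0.41 (edgeR adjusted p = 0.179).

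SCD (chr6:18573266-18589524) was the member with the largest differences between birds. It stood at 4638, 4406, 3297 and 7876 CPM in FL, against 531, 2598, 5656 and 2673 CPM in LL. FL replicate 4 and LL replicate 3 were the highest birds of their lines, LL replicate 1 was lowest by far, and LL replicate 3 lay above all FL birds except replicate 4. The highest LL bird had 10.7 times the level of the lowest, and in FL the highest had 2.39 times the lowest. The SD of log2 CPM within lines was 1.08, above that of 98.7% of all genes tested, whereas the other 5 members had SDs of 0.17 to 0.38. The means were 5054 ± 1970.2 CPM and 2864 ± 2109 CPM (SD, n = 4 each), and the log2 fold change of 0.82 with an SE of 0.53 (edgeR adjusted p = 0.557) did not pass the test.

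The size of this difference depended on single birds. The log2 fold change of SCD was 0.48 without LL replicate 1, 0.52 without FL replicate 4 and 1.39 without LL replicate 3 (edgeR adjusted p of 0.606, 0.727 and 0.310). FL replicate 4 and LL replicate 3 are also the birds whose first run had 1 library per lane, and they are those with the highest summed markers of muscle and of liver. In their later runs, which were sequenced at 8 libraries per lane like those of all birds, SCD was still the highest of each line (6654 and 5399 CPM on total counts). Without both birds the log2 fold change was 1.09 (edgeR adjusted p = 0.384). Over the 8 birds, Pearson's r of SCD with summed markers was 0.88 for adipocytes, 0.50 for skeletal muscle and 0.026 for liver. Muscle markers were high in FL replicate 4 alone. For the other cell types listed r was 0.50 (erythroid), 0.21 (fibroblast), 0.11 (leukocyte) and -0.63 (endothelial). The part of RNA of any of these cell types in these levels was not tested.

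LL replicate 1 was the lowest of the 8 birds for ME1, ACACA and SCD, that is for 3 of the 6 members, while it was the lowest for 18.0% of all genes tested. It was also the bird with the lowest summed adipocyte markers. PNPLA2 (1275 CPM), CEBPA (64.9 CPM), LPL (5038 CPM) and both PLIN1 features (1491 and 872 CPM) were lowest there among the 8 birds. ADIPOQ was at 330.4 CPM, next to FL replicate 3 at 329.6 CPM. The remaining markers differed: FABP4 was at 2547 CPM in this bird and 1511 to 2362 CPM in the other 7. PPARG at 307 CPM was second to FL replicate 2 at 355 CPM. LL replicate 1 was not low for ACACB, where it had the highest level in LL. SCD made up 20.2% of the counts of the 6 genes in that bird and 53.0% to 75.4% in the other 7. The 6 genes together took 0.274% of all counts in LL replicate 1 and 0.466% to 0.947% in the others, and without SCD the share was 0.191% to 0.302%.

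An unnamed feature, ENSGALG00000005734 (chr6:18570546-18572607), lies 659 bases from SCD and followed it in every bird. Over summed runs it had 59.5 to 68.1 counts for each 100 counts of SCD, lowest in LL replicate 1 and highest in LL replicate 3. This share depends on the runs. In the 6 birds with 4 libraries per lane in the first run, that run was at 0.612 to 0.719 times the later runs for the feature. For SCD it was at 0.805 to 0.881 times. In the later runs the feature and SCD had 439 and 634 CPM in LL replicate 1, on total counts. In LL replicate 3 they had 3628 and 5399 CPM, so that the share was then higher in LL replicate 1. Its level was 3029, 2813, 2156 and 5212 CPM in FL and 316, 1646, 3849 and 1702 CPM in LL, the same order of birds as SCD. Over the 8 birds, Pearson's r of log2 CPM with SCD was 0.9998 (a description, since both features share the libraries), the highest of all 11186 other genes. Its log2 fold change was 0.81 with an SE of 0.56 (edgeR adjusted p = 0.581). Adding its counts to SCD left the log2 fold change of SCD at 0.82 (edgeR adjusted p = 0.569). The feature was matched to no gene name, and whether it is part of the SCD transcript was not tested. Its counts are not assigned to SCD here. Adding them would raise the summed counts of SCD by 59.5% to 68.1% and change its share of the 6 genes and its ratios accordingly. A further feature, ENSGALG00000023488, lies within the span of FASN and had 0 counts in all runs. No other feature overlapped a member.

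**Figure D2:**
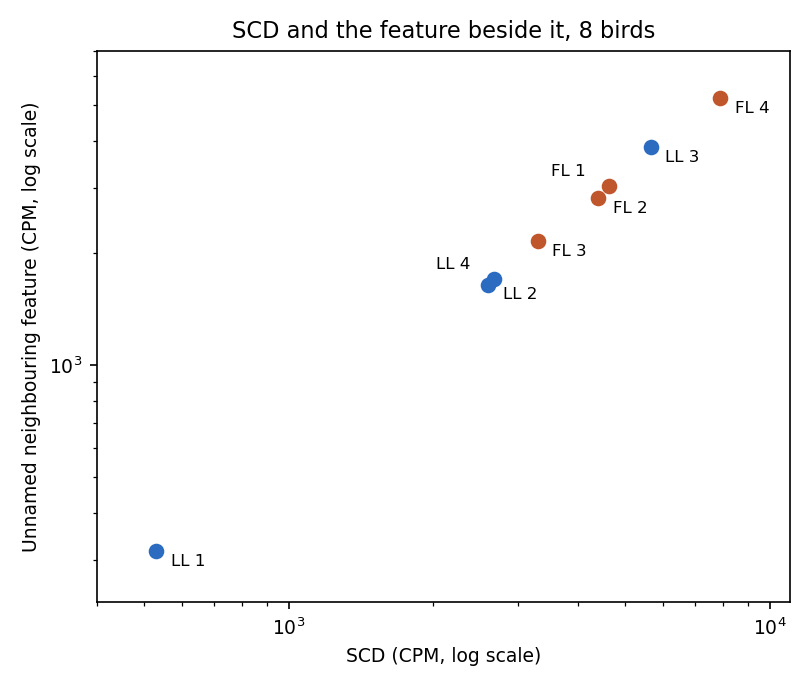
Level of SCD (horizontal axis) and of the unnamed feature beside it (vertical axis), both in CPM on log scales, with each point a bird labelled by line and replicate. The 8 birds fall along a line, from LL replicate 1 (531 and 316 CPM) to FL replicate 4 (7876 and 5212 CPM).

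Ratios of counts within a bird do not depend on how the libraries were scaled, and all 15 pairs of members were examined. They do depend on which runs are summed, since members shifted between runs in different directions, as described below. For 2 pairs the 4 FL and the 4 LL birds did not overlap, and both contain ME1. Over all pairs of tested genes, 8.09% did not overlap. The ratio of ACLY to ME1 was 3.50, 3.15, 2.82 and 2.66 in FL and 5.36, 4.98, 5.52 and 4.69 in LL. Every FL bird thus had less ACLY per ME1 than every LL bird, with a difference of the mean log2 ratios (FL minus LL) of -0.76. The ratio of ME1 to ACACA was 0.352, 0.346, 0.342 and 0.362 in FL and 0.212, 0.169, 0.142 and 0.255 in LL. Over summed runs the SD of this log2 ratio was 0.035 in FL and 0.37 in LL (n = 4 each). The small SD in FL is that of the sums, and ME1 and ACACA shifted in opposite directions between runs. In FL replicate 2 the first run was at 1.24 times the later runs for ME1 and 0.845 times for ACACA. In FL replicate 4 it was at 0.867 and 1.04 times. The mean log2 ratio of ME1 to ACACA was 0.89 higher in FL. ME1 had such a separation from 72.2% of all other genes, so that the pairs with ME1 repeat its difference between the lines.

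The other 3 ratios of ME1 overlapped between lines. ME1 per FASN was 0.052 to 0.082 in FL and 0.038 to 0.055 in LL, with FL replicate 3 below LL replicate 4. ME1 per ACACB was 0.147 to 0.312 in FL and 0.091 to 0.205 in LL. ME1 per SCD was 0.014 to 0.024 in FL, wholly inside the LL range of 0.0096 to 0.082, and its mean log2 ratio was lower in FL (difference -0.30). FASN was separated between lines from 19.6% of all other genes, but from 0 of the other 5 members. The remaining members were separated from 1.18% (ACACB) to 3.64% (SCD) of all other genes.

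Ratios to SCD had the widest range, since they carried its variation between birds. FASN per SCD was 0.386, 0.324, 0.462 and 0.174 in FL and 2.13, 0.471, 0.242 and 0.388 in LL. LL replicate 1 was the only bird with more counts of FASN than of SCD, and in FL replicate 4 FASN was lowest relative to SCD. ACACA per SCD ranged from 0.040 to 0.070 in FL and from 0.068 to 0.387 in LL, and these ranges overlapped by FL replicate 3 and LL replicate 3 alone. ACACA per ACACB, the ratio of the isoforms, was 0.649, 0.900, 0.431 and 0.665 in FL and 0.429, 0.769, 0.834 and 0.805 in LL. It was low in FL replicate 3 and LL replicate 1 and had no direction between the lines, with a difference of the mean log2 ratios of -0.10.

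**Figure D3:**
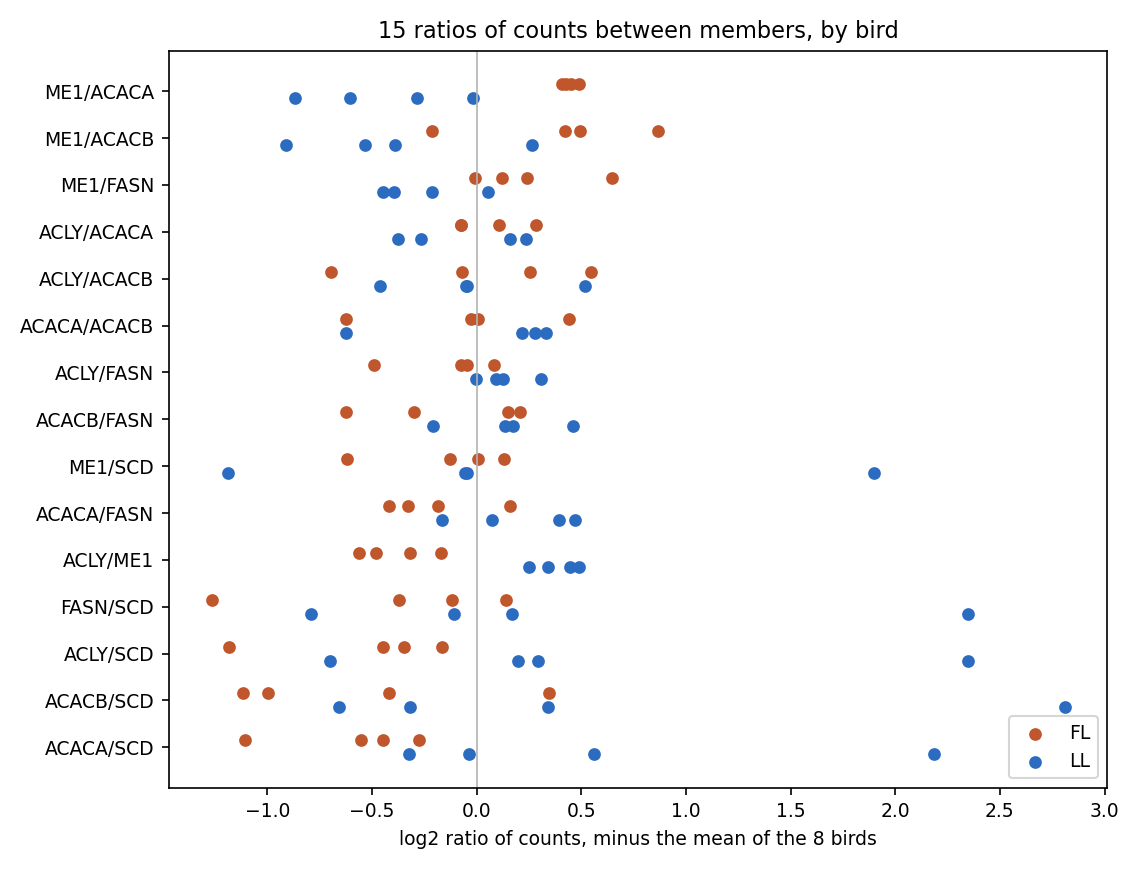
The 15 log2 ratios of counts between members (rows, ordered by the difference between lines), each after subtracting its mean over the 8 birds (horizontal axis), with a point for each FL and LL bird. The lines separate for ME1/ACACA (FL higher) and ACLY/ME1 (FL lower), and the far right points of the ratios to SCD are LL replicate 1.

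To see which genes moved together from bird to bird, the mean of each line was subtracted from log2 CPM and Pearson's r and Spearman's rho were computed over the 8 birds for the 15 pairs, with exact permutation of birds within lines (576 arrangements, two-sided). For 12 of the 15 pairs r was positive, and 4 pairs had an unadjusted p of 0.05 or less. The same shares over pairs of other genes are not given, so these counts cannot show a trait particular to the members. None of the 15 pairs passed after Benjamini-Hochberg adjustment over them.

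ACACA and SCD had the highest r, 0.81 (rho 0.90). Its exact permutation p was 0.0208 for r and 0.0243 for rho, and the adjusted p was 0.104 and 0.182. Without the birds farthest from the median of ACACA (LL replicates 1 and 3) r fell to 0.49, so that the relation rests in part on them. In the first runs alone its r was 0.84 (exact permutation p = 0.0122, adjusted p = 0.143). In the later runs alone it was 0.73 (exact permutation p = 0.0660, adjusted p = 0.247). There the highest r was that of ME1 and SCD, 0.83 (exact permutation p = 0.00521, adjusted p = 0.0781). Without FL replicate 4 and LL replicate 3, r of ACACA and SCD was 0.62 (exact permutation p = 0.417, adjusted p = 0.568). ME1 and SCD had r 0.77 (exact permutation p = 0.0156, adjusted p = 0.104) and rho 0.70 (exact permutation p = 0.111, adjusted p = 0.417), and r was 0.36 without FL replicate 3 and LL replicate 1. ACLY and ACACA had r 0.68 (exact permutation p = 0.0122, adjusted p = 0.104) and rho 0.90 (exact permutation p = 0.0243, adjusted p = 0.182). Without FL replicates 1 and 3 this r was 0.91. ACLY and SCD had r 0.60 (exact permutation p = 0.0451, adjusted p = 0.156) and rho 0.80 (exact permutation p = 0.0625, adjusted p = 0.313), with r 0.98 without FL replicates 1 and 3. With LL replicate 1 left out, 0 of the 15 pairs had an unadjusted p of 0.05 or less, and r of the pairs named here was then 0.75, 0.60, 0.59 and 0.53. Without both FL replicate 4 and LL replicate 3, 1 pair had an unadjusted p of 0.05 or less (ME1 and SCD, r 0.85). Its exact permutation p of 0.0278 is the smallest possible with these 6 birds, and the adjusted p was 0.278.

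ACACB had r of -0.14 to ACLY, -0.21 to ME1 and -0.16 to SCD, the 3 negative pairs. Their exact permutation p was 0.776, 0.642 and 0.698 (adjusted p of 0.831, 0.805 and 0.805). The signs were not stable, since over the alternatives r ranged from -0.41 to 0.29, -0.55 to 0.063 and -0.59 to 0.25. A low r was not particular to ACACB, with FASN at 0.24 to SCD. ACACB was nearest to FASN (r 0.47, exact permutation p = 0.278, adjusted p = 0.463), and this r turned to -0.30 without FL replicate 2 and LL replicate 4. FASN and ME1, the pair whose members both had FL birds above LL birds, had r 0.04 within lines (exact permutation p = 0.911, adjusted p = 0.911). Without subtraction of line means their r was 0.73, which then includes the difference between the lines.

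**Figure D4:**
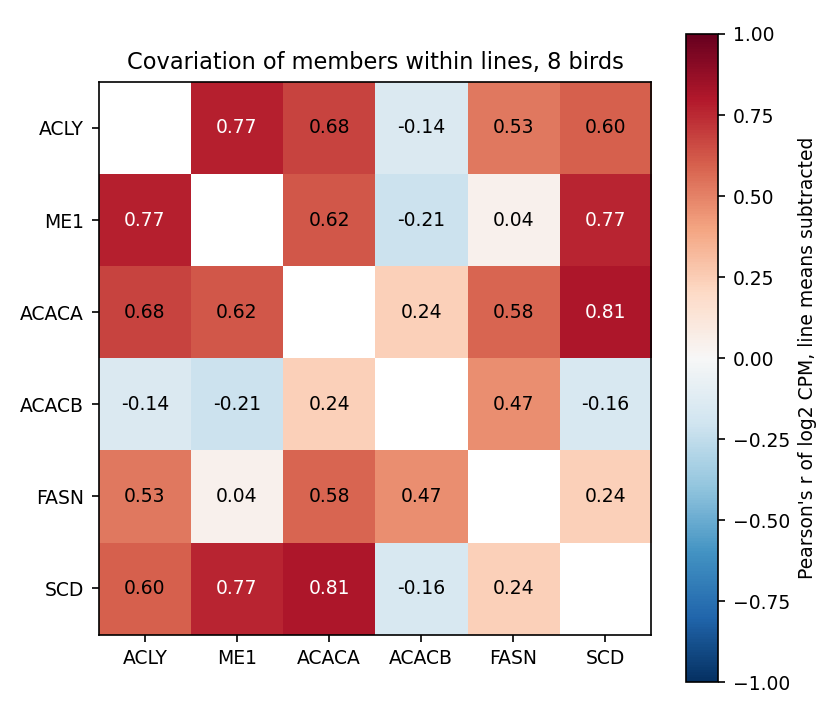
Pearson's r of log2 CPM over the 8 birds after subtracting line means, for each pair of members (rows and columns, colour and printed value). ACLY, ME1, ACACA and SCD are positively related to each other (0.60 to 0.81), and ACACB is at -0.21 to 0.47 with the other 5.

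The genes whose log2 CPM was most like each member over the 8 birds, among those with a symbol and a mean of at least 1 CPM, are given as a description with r and no test. For ME1 they were ITGB1BP3, GLB1L and SOST (r 0.96, 0.96 and 0.95), and for FASN LPPR5, S100A11 and ANKIB1 (0.95, 0.95 and 0.95). For SCD they were DEDD, GRHPR and NT5M (0.98, 0.98 and 0.98). ACLY was nearest to WSCD1, FAM105B and KIAA0664 (0.96, 0.94 and 0.91), ACACA to CASKIN2, HEYL and TIE1 (0.96, 0.96 and 0.95), and ACACB to CCDC27, FASTKD5 and C20orf67 (0.93, 0.90 and 0.89). No member was among the nearest genes of another. The highest r between members were those of ME1 with SCD and with FASN, both 0.73, which include the difference of ME1 between the lines. Of all genes, 4.78% were more like ME1 than SCD was, and 3.20% were more like FASN than ME1 was.

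Levels also differed between runs of the same library. In 6 birds the first run had 4 libraries per lane, and in FL replicate 4 and LL replicate 3 it had 1, while the later runs had 8 in all birds. In the 6 birds ACACB in the first run was 0.618 to 0.858 times its level in the later runs, SCD 0.805 to 0.881 times and ACACA 0.845 to 0.988 times, all below 1. FASN was 1.12 to 1.17 times and ME1 1.08 to 1.24 times, all above 1. ACLY was on both sides of 1 (0.957 to 1.08). In the other 2 birds each gene except ACLY was on the opposite side, with ACACB at 1.03 and 1.10 and FASN at 0.968 and 0.972.

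Such shifts were common in these libraries. Among 8041 genes with a mean of at least 10 CPM, 21.8% were below 1 and 32.9% above 1 in all 6 birds, and among 1825 genes with at least 100 CPM 27.1% were below and 50.7% above. The later runs of a bird lay within 2.48% of each other for SCD and 5.14% for FASN. For ME1, the member with the fewest counts, the ratio of the later runs to each other was 0.771 to 1.26 and for ACLY 0.910 to 1.16, at least as wide as the ratios of the first run to the later runs given above for these genes. For ACACB the shift was large enough to change the order of birds. LL replicate 1 had 501 CPM over all runs on total counts, below FL replicate 3 at 528 CPM, but in the later runs alone it was highest with 650.4 CPM against 587 CPM. Each line had 3 birds with 4 libraries per lane in the first run. The log2 fold change of ME1 was 0.85 in the later runs (edgeR adjusted p = 0.0300) and 0.91 in the first runs (edgeR adjusted p = 0.0849), and that of SCD was 0.81 and 0.83.

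**Figure D5:**
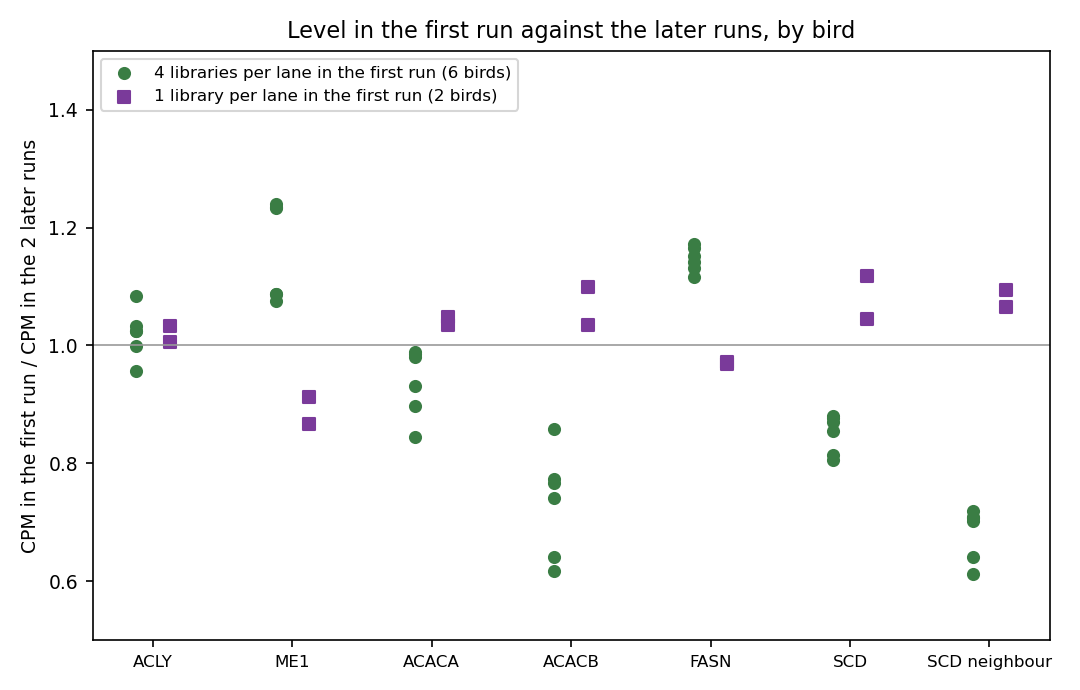
CPM on total counts in the first run of a bird divided by that in its later runs (vertical axis) for each member and for the feature beside SCD. Circles are the 6 birds with 4 libraries per lane in the first run, squares the 2 birds with 1 library per lane. ACACB circles lie at 0.618 to 0.858 and FASN circles at 1.12 to 1.17, with the squares on the other side of 1.

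Beside the members, 68 genes of the wider pathway were listed, of which 48 were found by name and 43 tested. A single gene of the 43 was called, higher in FL, and 0 were called higher in LL (edgeR), against 0.206% and 0.161% of all genes tested, and DESeq2 called the same single gene. At an unadjusted p of 0.05 or less there were 6, or 14.0% beside 13.1% over all genes. At TMM scaling birds did not overlap for 3 of the 43 (7.0%), all higher in FL, beside 8.1% of all genes in either direction and 3.76% higher in FL. The median log2 fold change of the list was 0.10 against 0.0021 over all genes tested, and 31 of 43 were higher in FL. The share of all genes higher in FL is not given, so this count cannot show a trait particular to the list. On total counts the median over all genes was -0.055, so the signs of small fold changes depend on the scaling.

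The gene called was LPIN1, a phosphatidate phosphatase that makes the diacylglycerol from which triglyceride is formed. It stood at 89.3, 105, 94.8 and 88.7 CPM in FL and at 65.3, 60.9, 54.1 and 61.6 CPM in LL. The lines did not overlap, and its log2 fold change was 0.64 with an SE of 0.10 (edgeR adjusted p = 0.0322). Like ME1 it lost the call in 6 of the 8 fits that left out a bird, with adjusted p of up to 0.115, and also on total counts (edgeR adjusted p = 0.0763).

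The other genes without overlap, MCAT and NDUFAB1, are among the 5 listed for the separate synthesis of fatty acids in mitochondria. Of the rest, CBR4, MECR and OXSM had log2 fold changes of 0.10, 0.065 and 0.052 (edgeR unadjusted p of 0.649, 0.754 and 0.733). MCAT, which loads malonyl groups onto the acyl carrier protein, had 37.8, 37.5, 39.9 and 43.4 CPM in FL and 22.6, 24.3, 34.5 and 30.0 CPM in LL. Its birds were apart, but the log2 fold change of 0.51 with an SE of 0.14 (edgeR adjusted p = 0.164) did not pass. NDUFAB1, the acyl carrier protein itself, had 48.8, 51.0, 50.3 and 53.0 CPM in FL and 42.6, 43.9, 42.8 and 47.8 CPM in LL. This was a small separation, with a log2 fold change of 0.20 with an SE of 0.091 (edgeR adjusted p = 0.384). Like that of FASN it held at TMM scaling only. On total counts FL replicate 4 fell below LL replicate 4, and the log2 fold change was 0.14 (edgeR adjusted p = 0.610).

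Genes that supply carbon and NADPH (5 tested of 13 listed) had a median log2 fold change of 0.11, with 0 called by edgeR or DESeq2 and 0 with an unadjusted p of 0.05 or less. Genes of elongation and desaturation (7 tested of 16) had a median of 0.21 with 0 called by edgeR or DESeq2 and 2 with an unadjusted p of 0.05 or less. Among them was FADS2, a desaturase of polyunsaturated fatty acids, with a log2 fold change of 0.72 (edgeR unadjusted p = 0.0085, adjusted p = 0.194). Its lines overlapped, at 242 to 461 CPM in FL and 169 to 256 CPM in LL. FADS1, another such desaturase in the list, had a log2 fold change of -0.026 (edgeR adjusted p = 0.970). Both were named after their values were seen. Genes that regulate the enzymes (7 tested of 9) had a median of 0.21, and those that use the product (7 tested of 8) of 0.13.

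The 12 transcription genes tested had a median log2 fold change of -0.017, with 0 called by edgeR or DESeq2 and 1 with an unadjusted p of 0.05 or less. Among regulators of lipogenic genes, SREBF2 was at 229 to 377 CPM in FL and 258 to 322 CPM in LL. The oxysterol receptor NR1H3 was at 264 to 342 CPM and 279 to 322 CPM, and INSIG1, which holds sterol regulatory proteins in the endoplasmic reticulum, at 15.6 to 29.9 CPM and 15.9 to 31.7 CPM. MLXIPL, the carbohydrate response factor, was near the lower limit of use at 0.981 to 2.23 CPM and 1.10 to 4.03 CPM. The lines overlapped for each of these, with edgeR adjusted p of 0.665 or more. SREBF1 and THRSP were matched to no feature by name and were not analysed here, which does not mean that they lack counts. The paper lists THRSPA among its highest expressed genes.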

How the data were processed

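The authors mapped trimmed paired-end reads to chicken genome build 2.1 with Ensembl release 64 in CLC Genomics Workbench 5.1, with 200 nt of flank added to each gene, at most 2 mismatches and without reads of several places. The deposited counts are unique exon reads per gene in 24 runs, not normalized. The 24 normalized columns, 4 means and 3 columns of the authors' fold change and p-values were not used. Runs of a bird were summed. Bird and line come from the sample titles (a description field of LL samples names the other line), and lanes from the paper, whose RNA extraction and kit differ from the labels.

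Counts were tested with edgeR 4.0.16 in R 4.3.3 (filterByExpr, TMM, glmQLFit with robust=FALSE, glmQLFTest), with Benjamini-Hochberg adjustment over all 11187 genes, and checked on simulated data. The SE is the log2 fold change divided by the root of F. CPM values use the TMM factors, and covariation log2 CPM with a prior count of 2. Ratios between members use the counts as they are, and the shares of ratios over all tested genes 0.5 added to each count. Of 17934 features 11416 received a name, from identifiers, the supplementary tables and a RefSeq table of assembly GRCg7b, and 138 names belong to several features. Alternatives were total counts, DESeq2 1.42.0, other filters, robust=TRUE, no fold threshold, single runs, a replicate block and leaving out each bird. The fit without FL replicate 4 and LL replicate 3, the limits of 10 and 100 CPM for runs and the sum of SCD with its neighbour were chosen after seeing the data. The members, lists and tests were chosen with earlier results of these data known. Named genes are the members, list genes called or without overlap between lines, the regulators SREBF1, SREBF2, MLXIPL, THRSP, NR1H3 and INSIG1 where matched by name, and the 3 genes with a symbol most like each member. FADS2, FADS1, CBR4, MECR, OXSM, DGAT2, CEBPA, PPARG, FABP4, PNPLA2, LPL, PLIN1, ADIPOQ, ACSL1 and PRKAA2 fall outside this rule and were named after their values were seen. A count of 0 allows up to 3 counts, 0.233 to 0.698 CPM in these birds, for counting error only. Figures were drawn with matplotlib 3.10.9. Counting was not stated to use strand, and reads shared with close copies were left out by the authors.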

Additional observations from a re-analysis of the deposited data

Results flagged for a closer look

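Groups of 4 birds were screened for the members, LPIN1, MCAT, NDUFAB1, the feature beside SCD and the ratios. Other genes named here were not screened. Among these 50 groups, 2 had a bird farther from the others of its line than the 95% critical value of Dixon's test allows. By chance about 1 in 20 groups is flagged. ME1 in LL replicate 1 was 43.6 CPM against 54.5 to 56.6 CPM in the other LL birds (gap over range 0.840). The log2 ratio of ACACA to ACACB in LL replicate 1 was -1.22 against -0.38 to -0.26 in the other LL birds (gap over range 0.879).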

How the results depend on the processing

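Every alternative kept the direction of ME1, FASN, SCD, LPIN1, MCAT and NDUFAB1. The log2 fold change of ACLY kept its sign but was only 0.00037 without FL replicate 1. With 1 member and 41 genes called in all 8 birds, fits without 1 bird called 0 to 1 members and 2 to 65 genes. The first run alone called 0 members and 1 gene, and the 6 birds with 4 libraries per lane in the first run 0 members and 19 genes. The 24 runs taken as replicates gave 2 members (FASN beside ME1, edgeR adjusted p = 0.00082) and 1327 genes. These runs repeat the sequencing of 1 library per bird and are not independent. The p-values of that fit therefore do not measure the spread between birds. The count of all genes was 27 without a filter, 133 in the later runs and 297 with DESeq2, where FASN had an adjusted p of 0.0912. On total counts 20 genes were higher in FL and 26 in LL, against 23 and 18. The replicate block left 0 members and 8 genes. Replicate numbers carry no pairing in the labels, and the correlation of same-numbered birds was 0.23, -0.058, -0.11 and -0.061. These values cannot show whether same-numbered birds shared a step of handling, which was not tested. The log2 fold change of ACACA ranged from -0.19 to 0.12 and that of ACACB from -0.062 to 0.24 when a bird was left out, and ACACA was 0.045 in the 6 birds. The number of ratios without overlap was 2 to 5 without 1 bird and 6 in the 6 birds, where fewer birds overlap by construction. The number of pairs with an unadjusted exact permutation p of 0.05 or less was 0 to 4 without 1 bird, 2 on total counts and 1 in the 6 birds. The cause of the other changes was not tested. With 4 birds a line precision was limited, while each member had 306 or more counts in every bird. How much of the spread between birds came from the runs was not tested.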

Other observations

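LL replicate 1, the bird with the least SCD, was the lowest bird for 8 of the 43 pathway genes tested (18.6%), beside 18.0% of all genes. The genes that follow were picked after their values had been seen. DGAT2, which adds the last acyl group of triglyceride, had 459, 584, 369 and 615 CPM in FL replicates 1 to 4 and 204, 486, 599 and 518 CPM in LL replicates 1 to 4. CEBPA, a transcription factor of mature adipocytes, had 146, 196, 171 and 251 CPM in FL and 64.9, 159, 208 and 93.6 CPM in LL. Both were lowest in LL replicate 1. PPARG, the master regulator of adipocyte formation, stood at 307 CPM in that bird and at 251 to 355 CPM in the other 7. ACSL1, which activates fatty acids, was at 2758 CPM there and at 2215 to 2914 CPM in the other 7, and FABP4, a fatty acid binding protein, was higher there (2547 CPM) than in any other bird. PRKAA2, a catalytic subunit of AMP-activated kinase, which phosphorylates acetyl-CoA carboxylases, had 16.8 CPM in FL replicate 4, the bird with skeletal muscle RNA, and 1.22 to 2.56 CPM in the other 7.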
